A study of Homo sapiens with 6 samples.

Results

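The nuclear genes of the respiratory chain and the ATP synthase were examined for peaks of open chromatin in thyroid cells treated with thyroid hormone. They were taken by symbol from the RefSeq table of GRCh38: protein-coding genes whose symbols start with NDUF, UQCR, COX4 to COX8 or ATP5, and SDHA, SDHB, SDHC and SDHD. The rule found 96 of the 19974 protein-coding genes on chromosomes 1 to 22 and X. They comprise 38 genes named for complex I subunits, 8 assembly factors of complex I (NDUFAF), 4 genes of complex II, 9 of complex III, 17 of complex IV and 20 of complex V, and the groups include 2 readthrough genes, NDUFC2-KCTD14 and ATP5MF-PTCD1, which share their peaks with NDUFC2 and ATP5MF. Chromatin was profiled by ATAC-seq, in which the transposase Tn5 inserts adapters into accessible DNA, in Nthy-ORI, an immortalised human line from normal thyroid epithelium. All cells spent 24 h in hormone-stripped medium. The groups were 10 nM T3 (triiodothyronine, the active thyroid hormone) for 24 h, 10 nM T3 for 6 h, and NaOH vehicle, labelled 6 h, with 2 samples each from 1 cell line; the labels do not say whether these were separate cultures. No 24 h vehicle was analysed here, and at 24 h the effects of hormone and of elapsed time cannot be told apart.

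The deposited data are 1 list of peaks per group, with 60661 peaks for T3 24 h, 12385 for T3 6 h and 7103 for vehicle. Each peak was found in both replicates of its group and passed the irreproducible discovery rate (IDR), which asks whether a peak ranks alike in 2 replicates. With 1 list per group there is no replicated value per condition, so no difference between lists is tested here. The depth of sequencing is unknown, and where a gene lacks a peak its chromatin is not thereby shown closed. Over all peaks, the signals in the 2 replicate columns had a Spearman rho of 0.69 at T3 24 h. It was -0.28 at T3 6 h and 0.05 in vehicle. The peaks had been selected on both replicates, so these values describe the lists and do not measure replicate agreement as such. Whether this difference contributes to the counts was not tested. Of 9 thyroid markers, 5 had a peak within 1 kb of a gene end at T3 24 h (PAX8, NKX2-1, FOXE1, HHEX and TSHR; 55.6%, against 60.8% of all genes), 1 at T3 6 h (PAX8; 11.1%, against 10.8%) and 0 in vehicle (1.34% of all genes). These shares were near the background, and TG, DUOX2 and SLC5A5 were among the markers with none in any list. Among 5 markers of other cell types, 0 had one in any list.

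The respiratory chain passes electrons from NADH (complex I) and succinate (complex II) through complexes III and IV to oxygen and pumps protons across the inner mitochondrial membrane, and complex V, the ATP synthase, uses the proton gradient to make ATP. Most subunits are encoded in the nucleus, and their promoters are textbook targets of the nuclear respiratory factor NRF1, of the ETS factor GABP and of YY1. Thyroid hormone raises oxygen consumption in many tissues and is a classical regulator of mitochondrial capacity.

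Most of these genes had a peak of open chromatin at a gene end in the T3 24 h list. A gene-end peak, one whose position (the mean of both replicate summits) lay within 1 kb of a gene boundary, was present for 81 of the 96 genes at T3 24 h (84.4%, exact 95% interval 75.5 to 91), against 60.8% of all protein-coding genes. At T3 6 h it was present for 20 (20.8%, 13.2 to 30.3), against 10.8% of all genes. In vehicle it was present for 1 (1.04%, 0.0264 to 5.67), against 1.34% of all genes, a share near the background. Intervals cover counting error only. Set against vehicle, 80 genes had a gene-end peak at T3 24 h and none in vehicle (59.7% of all genes did), and 19 had one at T3 6 h and none in vehicle (10.3% of all genes). Set against T3 6 h, 61 had one at T3 24 h and none at T3 6 h (50.5% of all genes), and 0 showed the converse (0.551% of all genes). A vehicle peak without one at T3 24 h was found for 0 (0.225% of all genes), and without one at T3 6 h for 0 (0.846%). A gene-end peak in all 3 lists was found for 1 gene, ATP5MC1, against 0.456% of all genes. All 20 genes of the T3 6 h list thus also had a gene-end peak at T3 24 h, and for all 20 the peaks of both times overlapped by at least 50% of the shorter one.

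**Figure D1:**
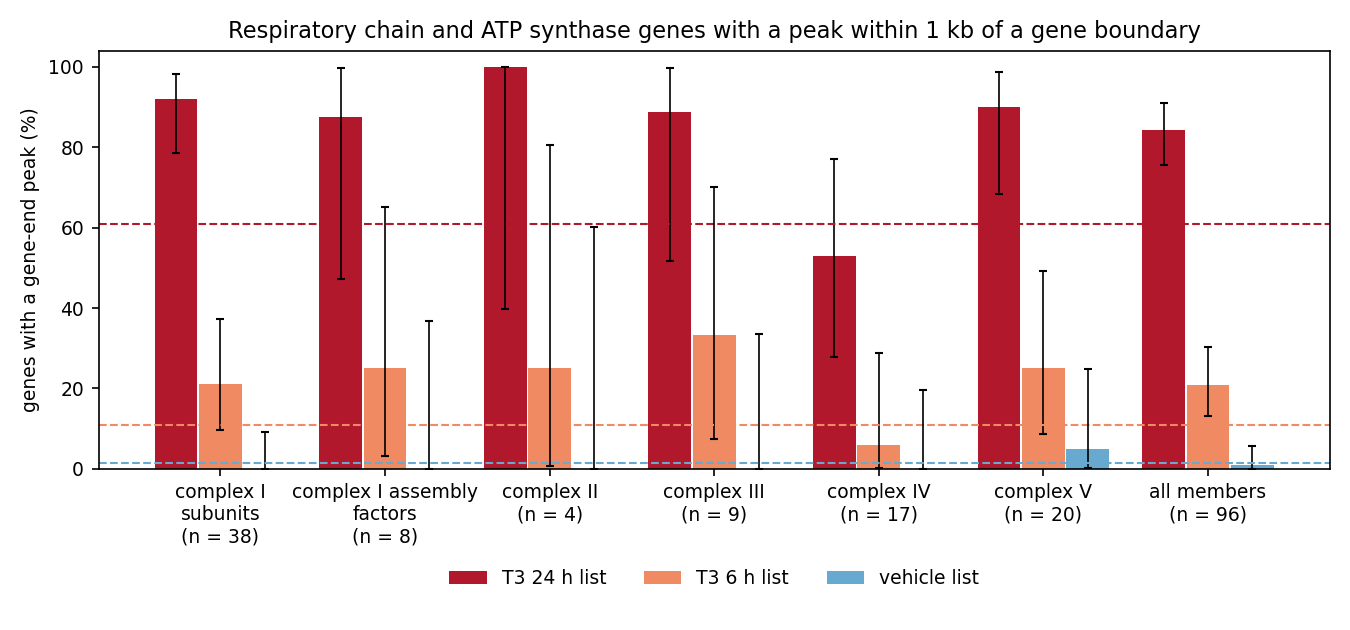
Share of genes with a peak within 1 kb of a gene boundary (y axis, percent) by complex and for all 96 genes, in the T3 24 h, T3 6 h and vehicle lists; error bars are exact 95% intervals for counting error and dashed lines give the share over all protein-coding genes (60.8%, 10.8% and 1.34%). Complex IV stood lowest at T3 24 h, with 9 of 17 genes, and 1 gene, in complex V, had a vehicle peak.

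The counts depended on list length and on replicate agreement. With each list limited to its 7103 strongest peaks, 36 genes had a gene-end peak at T3 24 h (37.5%, against 16.6% of all genes) and 14 at T3 6 h (14.6%, against 6.26%). Ranked by the first replicate column alone, the equal lists held 31 genes at T3 24 h (32.3%, against 16.4% of all genes). They held 16 at T3 6 h (16.7%, against 6.94%). Ranked by the second column alone, they held 34 at T3 24 h (35.4%, against 16%) and 10 at T3 6 h (10.4%, against 5.46%). With an IDR of at most 0.01 there were 80 genes at T3 24 h, against 55.1% of all genes, and 6 at T3 6 h (6.25%, against 3.59%): NDUFA2, NDUFA6, NDUFA11, NDUFAF2, UQCR10 and UQCRQ. Limiting replicate summits to 100 bp apart left 61 genes at T3 24 h (63.5%, against 43.5%) and 4 at T3 6 h (4.17%, against 3.14%, close to the background): NDUFAF2, UQCRC2, ATP5MK and ATP5PO. NDUFAF2 was the gene on both of these short T3 6 h lists. In each of these T3 24 h and T3 6 h counts the share was above that of all genes. In vehicle 0 genes were left by the IDR limit (0.461% of all genes) and 0 by the summit limit (0.32%). All genes that the IDR limit left at T3 24 h or T3 6 h thus had none in vehicle (54.8% and 3.48% of all genes), and so did all that the summit limit left (43.3% and 3.12%). A peak at T3 24 h and none at T3 6 h was found for 74 genes under the IDR limit (51.7% of all genes), 57 under the summit limit (41.1%) and 27 in equal lists (13.3%). In equal lists 35 genes had a T3 24 h peak and none in vehicle (16.1% of all genes), and 14 a T3 6 h peak and none in vehicle (5.95%).

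Peaks of these genes ranked high in the T3 24 h list. Taking the strongest gene-end peak of each gene, the median percentile by summed signal was 86.5 (range 25.3 to 99.8, 81 genes), against 75.7 over the 12137 genes of all kinds with such a peak. The scale of the signal is not stated, so signals are compared only within a list. Of the 81 peaks, 32 (39.5%) lay above percentile 90, against 23.8% of all genes with a gene-end peak, and 79 had the highest possible IDR score (97.5%, against 84.6%). The median distance between replicate summits was 50 bp, against 49 bp for all. At T3 6 h the median percentile was 53.9 (2.13 to 93.0, 20 genes), against 49.7 for all genes with a gene-end peak there, and the median summit distance was 263 bp, against 214 bp. The 20 genes with a T3 6 h peak held a median percentile of 95.1 in the T3 24 h list, and the 61 without one 80.3. The same split was not made over all genes, so whether it is particular to this set was not examined. Between the 2 times the order of the 20 genes had a Spearman rho of -0.16, given as a description.

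**Figure D2:**
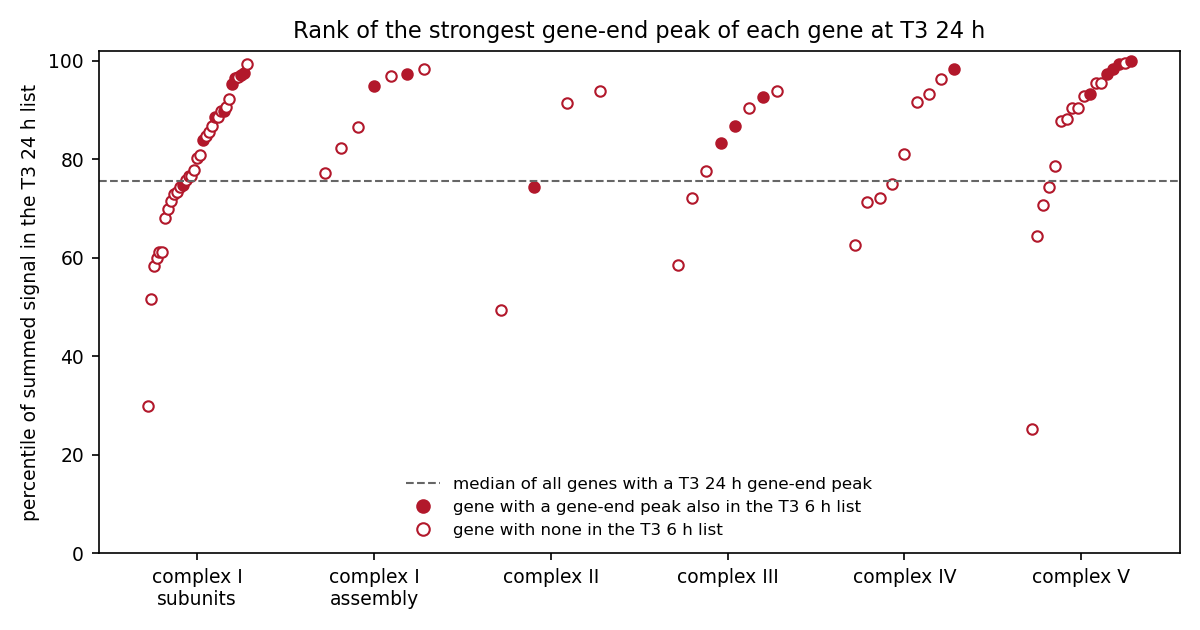
Percentile of summed signal in the T3 24 h list (y axis) of the strongest gene-end peak of each of the 81 genes that had one, by complex; points within a complex are sorted by value, filled points have a gene-end peak also in the T3 6 h list, and the dashed line is the median of all genes with a T3 24 h gene-end peak (75.7). The 20 filled points lie at or above percentile 74.3, with a median of 95.1, and 2 genes, NDUFS6 and ATP5F1D, lie under percentile 30.

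Promoter sequences were then examined at RefSeq starts, whether or not a peak lay over them. RefSeq (GRCh38.p14) gave starts, strand and 300 bases, 250 before and 50 after the start, for 78 of the 96 genes and for 15812 protein-coding genes in all; where a gene has several starts, the outermost was used for sequence. In these windows 6 motifs were searched as exact letters on both strands: the NRF1 core GCATGCGC, the ETS site CCGGAAGT bound by GABP, the YY1 site AAGATGGC, the CCAAT box, the GC box GGGCGG, and a direct repeat of AGGTCA with a spacer of any 4 bases, a form bound by thyroid hormone receptors. The first 3 promoters shown belong to the genes with the highest T3 24 h signals among those 78 whose start lies under the peak; ATP5F1B, with the highest signal of the set, is not among the 78. They are ATP5PF at chr21:25735005-25735304 (minus strand), ATP5PO at chr21:33915755-33916054 (minus) and NDUFB4 at chr3:120596086-120596385 (plus). The other 3 have T3 6 h peaks: ATP5MC1, the gene present in all 3 lists, at chr17:48892537-48892836 (plus), NDUFAF2, the strongest at T3 6 h, at chr5:60944955-60945254 (plus), and NDUFA1, the next strongest, at chrX:119871582-119871881 (plus). Each is printed 5′ to 3′ along its gene, and capitals mark every match to the motifs.
ATP5PF: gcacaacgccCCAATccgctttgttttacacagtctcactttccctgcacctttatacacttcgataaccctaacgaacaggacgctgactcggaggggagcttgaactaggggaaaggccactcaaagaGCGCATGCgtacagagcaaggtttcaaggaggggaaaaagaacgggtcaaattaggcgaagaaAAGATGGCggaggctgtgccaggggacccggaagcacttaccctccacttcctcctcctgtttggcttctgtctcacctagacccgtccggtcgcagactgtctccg
ATP5PO: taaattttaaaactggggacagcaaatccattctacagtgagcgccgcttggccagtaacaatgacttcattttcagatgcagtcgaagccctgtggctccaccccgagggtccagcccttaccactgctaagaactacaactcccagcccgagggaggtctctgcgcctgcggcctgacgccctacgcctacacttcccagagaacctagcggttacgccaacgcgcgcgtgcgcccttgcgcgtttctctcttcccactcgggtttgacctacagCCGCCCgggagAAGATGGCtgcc
NDUFB4: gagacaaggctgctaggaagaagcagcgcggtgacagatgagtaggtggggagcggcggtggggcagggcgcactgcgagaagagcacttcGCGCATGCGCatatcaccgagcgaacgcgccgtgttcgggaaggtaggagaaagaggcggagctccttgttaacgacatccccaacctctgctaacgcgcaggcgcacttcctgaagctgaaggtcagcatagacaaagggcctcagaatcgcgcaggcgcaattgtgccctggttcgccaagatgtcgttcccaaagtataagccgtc
ATP5MC1: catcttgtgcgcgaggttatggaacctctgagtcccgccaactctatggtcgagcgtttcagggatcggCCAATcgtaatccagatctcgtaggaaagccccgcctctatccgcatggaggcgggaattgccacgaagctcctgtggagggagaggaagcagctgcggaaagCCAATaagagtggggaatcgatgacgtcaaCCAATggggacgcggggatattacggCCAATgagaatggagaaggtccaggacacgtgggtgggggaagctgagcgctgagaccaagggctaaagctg
NDUFAF2: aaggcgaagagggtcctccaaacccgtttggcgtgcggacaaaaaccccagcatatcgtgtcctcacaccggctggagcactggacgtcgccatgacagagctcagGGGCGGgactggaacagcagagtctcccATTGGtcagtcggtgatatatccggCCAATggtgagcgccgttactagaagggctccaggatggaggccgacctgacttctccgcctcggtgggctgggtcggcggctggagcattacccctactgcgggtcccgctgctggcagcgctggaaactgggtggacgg
NDUFA1: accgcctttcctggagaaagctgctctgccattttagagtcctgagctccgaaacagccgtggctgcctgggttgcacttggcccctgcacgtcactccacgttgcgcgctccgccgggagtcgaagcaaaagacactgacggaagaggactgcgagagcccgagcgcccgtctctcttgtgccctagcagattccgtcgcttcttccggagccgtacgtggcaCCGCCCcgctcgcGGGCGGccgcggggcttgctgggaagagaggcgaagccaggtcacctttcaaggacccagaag

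These promoters differed in what they hold. Counting from the start as 0, ATP5PF held an NRF1 core on the minus strand with its first base at -120 and a YY1 match at -57, besides a CCAAT box at -240. NDUFB4 held the NRF1 core on both strands, at -159 and -157, as 2 overlapping matches of 1 palindrome. ATP5PO held a YY1 match at 38, inside the transcribed part, beside a GC box on the minus strand at 27. ATP5MC1 held 4 CCAAT boxes, at -181, -78, -48 and -22, and none of the other motifs. NDUFAF2 held 2 CCAAT boxes and a GC box, and NDUFA1 2 GC boxes, at -26 and -13.

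The 78 genes include 10 with no gene-end peak. Over all 78, matches to NRF1, ETS and YY1 were found in larger shares than over all promoters of that length. The NRF1 core was present in 15 (19.2%, against 4.28% of 15812), the ETS site in 10 (12.8%, against 6.17%) and the YY1 site in 12 (15.4%, against 3.86%). At least 1 of these was present in 31 (39.7%, against 13.1%). The CCAAT box, in 29 (37.2%, against 36.4%), and the GC box, in 45 (57.7%, against 58.3%), were near the background. The thyroid hormone receptor repeat was found in 0 of the 78 and in 1 of the 15812 promoters, which says only that these letters are absent from the windows searched. By complex, the NRF1 core was in 5 of 33 promoters of complex I subunits and 2 of 7 of its assembly factors. It was in 2 of 3 of complex II, 0 of 7 of complex III, 2 of 14 of complex IV and 4 of 14 of complex V. The ETS site was in 3 of the 7 of complex III. Among the 18 genes of the table with a T3 6 h gene-end peak 2 held the NRF1 core, and among the 50 with one at T3 24 h and none at T3 6 h 12 did.

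**Figure D3:**
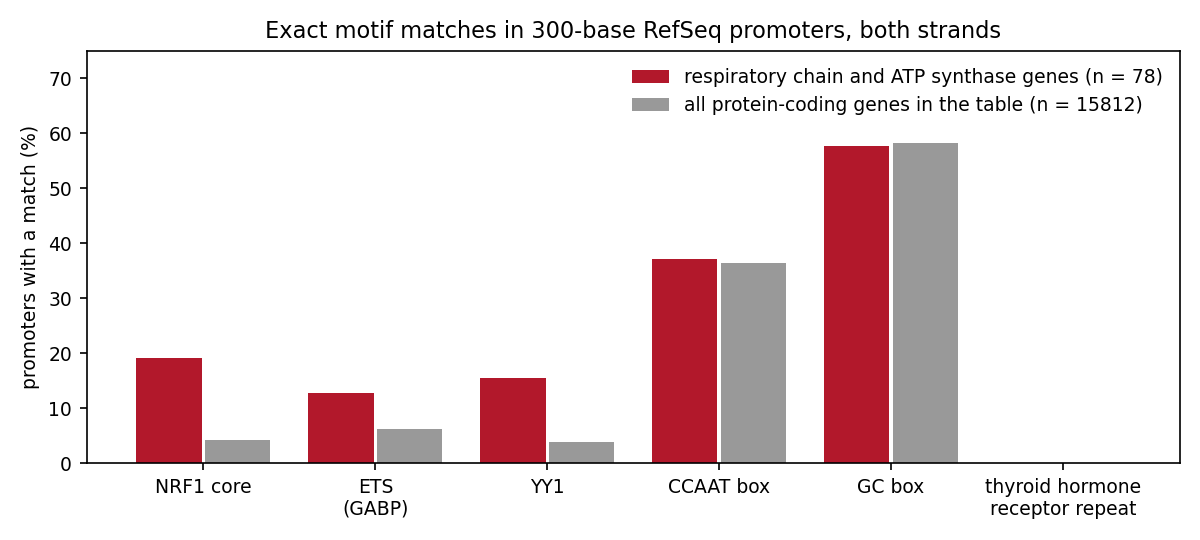
Share of promoters with at least 1 exact match (y axis, percent) to each of 6 motifs (x axis), for 78 respiratory chain and ATP synthase genes and for all 15812 protein-coding genes of the promoter table, both strands. The NRF1 core was found in 19.2% against 4.28% and YY1 in 15.4% against 3.86%, while CCAAT and GC boxes were found in like shares.

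These promoters were close to the rest in GC content. It had a median of 61.0% (range 37.0 to 74.7), against 62.7% over all promoters of the table. The ratio of observed to expected CG pairs had a median of 0.844, against 0.762 over all promoters. For the 10 of the 78 genes with no gene-end peak, at their outermost starts, it was 0.374. Among these 10 are COX7A2, COX7A2L, NDUFA5, NDUFC1, NDUFAF3 and ATP5MC2. The start measured for these was not the start nearest to their T3 24 h peak, which lay at an inner start. Among promoters of at least 60% GC, 39 of 41 genes of the set had a T3 24 h gene-end peak (95.1%), against 75.4% of 9430 genes in all. Below 60% GC 29 of 37 had one (78.4%), against 45.6% of 6382. The genes themselves were short, with a median length of 10198 bp against 24170.5 bp for all protein-coding genes.

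With strand known, the peaks lay at starts. Of 71 gene-end peaks of genes in the promoter table at T3 24 h, 68 were at the start and 3 at the 3′ end, those of NDUFA7, NDUFB6 and COX6B1. The 3′ peaks of NDUFA7 and NDUFB6 were also gene-end peaks of CD320 and TOPORS, and all 3 genes had a start peak as well. The start peaks lay a median of 67.5 bp upstream of the nearest RefSeq start (position -67.5; from -806.5 at NDUFA11 to 382.5 at UQCRFS1), and 57 of 68 lay within 200 bp of it. At T3 6 h all 18 such peaks were at starts, at a median position of -138 bp, and 11 lay within 200 bp. The split between starts and 3′ ends is not given here over all genes, so it is not shown to be particular to this set. Taking all peaks within 1 kb of a start, 63 of 74 genes had theirs within 200 bp at T3 24 h (85.1%, against 71.3% of all genes) and 13 of 20 at T3 6 h (65%, against 53.3%). Their median positions were -68 bp at T3 24 h, close to the -56.25 bp of all genes, and -140.25 bp at T3 6 h, against -58.5 bp. Measured to any RefSeq start, 74 of the 78 genes had a T3 24 h peak within 1 kb (94.9%, 87.4 to 98.6, against 64.9% of 15812 genes), 20 a T3 6 h peak (25.6%, against 12%) and 1 a vehicle peak (1.28%, against 1.3%). With an IDR of at most 0.01 these were 74 at T3 24 h (59.8% of all genes) and 6 at T3 6 h (4.04%), with summits within 100 bp 59 (46.3%) and 5 (3.56%), and in equal lists 35 (18.9%) and 12 (6.87%).

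**Figure D4:**
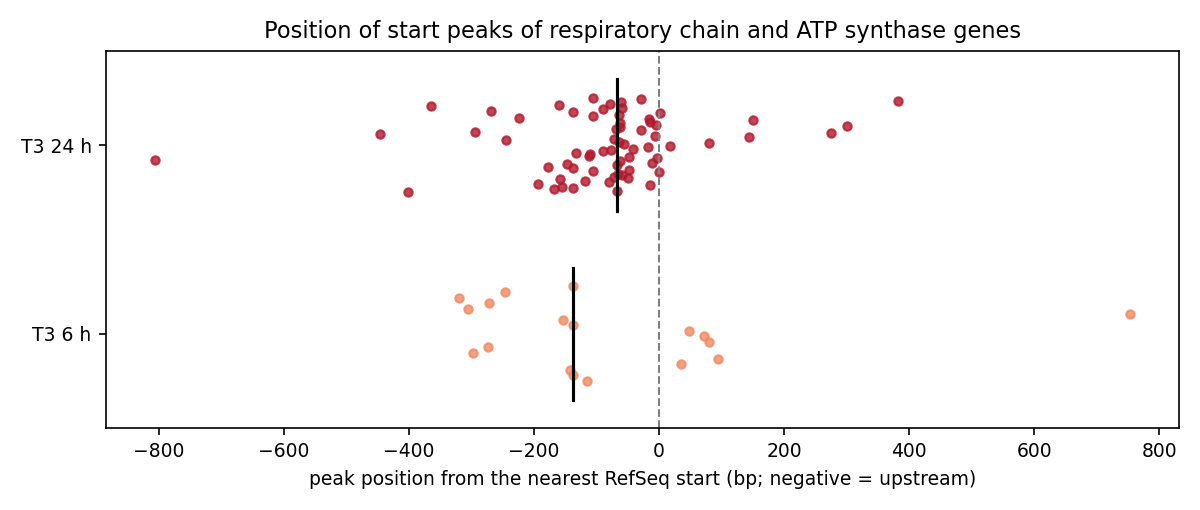
Position of each start peak from the nearest RefSeq start (x axis, bp, negative upstream) for 68 peaks at T3 24 h and 18 at T3 6 h; vertical spread within a row only separates points, and black lines are medians, -67.5 bp and -138 bp. Most T3 24 h peaks lie just upstream of the start, and 1 T3 6 h peak, at NDUFB6, lies 754 bp downstream.

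Many of these peaks also lay near an end of another gene, at its start or its 3′ end, since the strand of the other gene was not used. At T3 24 h the peak of 35 of the 81 genes (43.2%) was also a gene-end peak of a protein-coding gene outside the set; counting readthrough partners too it was 48.1%, against 27.8% of all genes with a gene-end peak. At T3 6 h it was 11 of 20 (55%, against 33.9%). A peak near 2 genes cannot be given to either. The strongest shared peak was that of ATP5PF, which also lay at GABPA, the gene for the DNA-binding subunit of GABP. Other pairs were NDUFAF2 with ERCC8, a DNA repair gene, SDHD with TIMM8B, a mitochondrial import factor, NDUFB5 with MRPL47 and NDUFS6 with MRPL36, both mitochondrial ribosomal protein genes, and NDUFA7 with RPS28, a cytosolic ribosomal protein gene.

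Complex I takes electrons from NADH. Of its 38 genes, 35 had a gene-end peak at T3 24 h (92.1%), 8 at T3 6 h (21.1%) and 0 in vehicle. Over all genes the shares were 60.8%, 10.8% and 1.34%. All 11 NDUFB genes, accessory subunits of the membrane arm, had one at T3 24 h, as did 11 of 12 NDUFA and 3 of 3 NDUFV genes. NDUFB4 had the strongest T3 24 h peak of the complex, with signals of 18.2 and 19.2 in the first and second replicate column (percentile 99.3, chr3:120595983-120596816, summits 5 bp apart). NDUFA6, an accessory subunit, had 15.2 and 16.9 at T3 24 h and 5.51 and 5.46 at T3 6 h, at percentiles 97.4 and 67.8 of those lists. NDUFA2 had 15.9 and 15.7 at T3 24 h and 4.85 and 6.08 at T3 6 h, with replicate summits 37 bp and 348 bp apart. For both genes the T3 6 h summits were thus placed less closely than those at T3 24 h. NDUFB5 had 12.4 and 18.4 at T3 24 h and no T3 6 h peak.

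The core subunits of complex I that are nuclear-encoded carry its flavin and iron-sulphur centres and part of the quinone site. Their T3 24 h gene-end peaks stood at percentiles from 69.8 (NDUFS7) to 89.7 (NDUFV2), and 0 of these genes had a T3 6 h one (10.8% of all genes). NDUFV1, which binds NADH, had signals of 8.58 and 10.3. The lowest complex I peak at T3 24 h was that of NDUFS6, with 4.22 and 5.95 (percentile 29.8). The other complex I genes with T3 6 h peaks were NDUFA1, NDUFA11, NDUFB3, NDUFB6, NDUFS5 and NDUFV3, at percentiles 75.6, 67.9, 8.61, 40.5, 56.3 and 4.64 of the T3 6 h list. Their replicate summits lay 105 bp (NDUFB3) to 590 bp (NDUFB6) apart.

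The assembly factors of complex I build it and are not part of the finished enzyme. Of these 8 genes 7 had a T3 24 h gene-end peak (87.5%, against 60.8% of all genes) and 2 a T3 6 h one (25%, against 10.8%). NDUFAF5, a hydroxylase of the core subunit NDUFS7, had signals of 17.2 and 16.4 at T3 24 h, with summits 0 bp apart. NDUFAF2, a chaperone of a late assembly step, had 15.1 and 16.8 at T3 24 h (percentile 97.3) and 4.69 and 9.73 at T3 6 h (percentile 93.0), and its T3 6 h summits lay 22 bp apart. It was the 1 gene of the set above percentile 90 at T3 6 h (5% of 20, against 6.29% of all genes with a gene-end peak there). It was also the 1 with the highest IDR score there (5%, against 16.7%), a share below the background. Its second replicate column stood well above the first at T3 6 h. NDUFAF4 had 13.4 and 17.9 at T3 24 h. NDUFAF7, a methyltransferase, had 13.5 and 15.2 at T3 24 h with summits 503 bp apart, and 5.05 and 3.93 at T3 6 h.

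Complex II, succinate dehydrogenase, links the citric acid cycle to the chain, and all 4 of its genes had a T3 24 h gene-end peak (60.8% of all genes). SDHB, the iron-sulphur subunit, had signals of 11.4 and 16.2 (percentile 93.7). SDHA, the flavoprotein, had 8.36 and 17.3 (percentile 91.3), with replicate summits 351 bp apart and a second replicate column far above the first. SDHC and SDHD, the membrane anchors, stood lower, with 6.06 and 6.36 (percentile 49.4) for SDHC and 6.89 and 10.9 (percentile 74.3) for SDHD. SDHD alone of the 4 had a T3 6 h peak (25%, against 10.8% of all genes), with 6.08 and 4.13 (percentile 51.5).

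Complex III passes electrons from ubiquinol to cytochrome c. Of 9 genes 8 had a T3 24 h gene-end peak (88.9%, against 60.8% of all genes) and 3 a T3 6 h one (33.3%, against 10.8%). The gene without one, UQCRHL, is a near copy of UQCRH. UQCRB had the strongest T3 24 h peak (11.7 and 15.9), followed by UQCRQ (11.7 and 15.02). UQCRFS1, the Rieske iron-sulphur protein, had 11.95 and 13.1 with replicate summits 767 bp apart, and UQCRC2, a core protein, had 10.2 and 12.7 with summits 2 bp apart. At T3 6 h the peaks were those of UQCRC2 (5.05 and 5.01, summits 0 bp apart), UQCRQ (4.75 and 5.79, 317 bp apart) and UQCR10 (4.28 and 6.42, 676 bp apart).

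Complex IV, cytochrome c oxidase, reduces oxygen to water, and several of its subunits exist as a widely expressed form and a tissue form. Of the 17 genes, 9 had a gene-end peak at T3 24 h (52.9%, exact 95% interval 27.8 to 77), against 60.8% of all genes. At T3 6 h 1 had one (5.88%, 0.149 to 28.7), against 10.8%, and in vehicle 0 (1.34% of all genes). Both T3 shares were thus near or below the background. All 9 genes with a T3 24 h gene-end peak were forms used widely: COX4I1, COX5A, COX5B, COX6A1, COX6B1, COX6C, COX7B, COX7C and COX8A. COX7C had the strongest T3 24 h peak, with signals of 12.9 and 21.0 (percentile 98.3), and it was also the gene with a T3 6 h peak, with 5.54 and 3.54 (percentile 14.9). COX8A followed with 14.5 and 15.8, COX6A1 with 11.7 and 15.5 and COX5B with 11.6 and 14.3. The replicate summits of the COX6C peak lay 517 bp apart.

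The tissue forms had no peak at either boundary in any list. These were COX6A2 and COX7A1, the heart and skeletal muscle forms, COX6B2, COX7B2 and COX8C, known from testis, and COX4I2, known from lung. Their nearest T3 24 h peaks lay from 2484.5 bp (COX4I2) to 84338.5 bp (COX7B2) from a boundary. Over all genes 60.8% had a gene-end peak at T3 24 h, 10.8% at T3 6 h and 1.34% in vehicle. For 0 of 6 genes the exact 95% interval is 0 to 45.9%, so absence from the T3 6 h and vehicle lists was near the background. The widely expressed partners COX4I1, COX6A1, COX6B1, COX7B and COX8A each had a T3 24 h start peak, between percentiles 71.3 and 96.3. COX7A2, the partner of COX7A1, went the other way by this measure, with no gene-end peak in any list. Its T3 24 h peak lay at an inner start (percentile 97.9). The 4 tissue forms in the promoter table were COX6A2, COX6B2, COX7B2 and COX8C. They were also the 4 of the 78 genes there with no T3 24 h peak within 1 kb of any RefSeq start (64.9% of all genes had one). No expression values are among the files used here, so whether these forms are transcribed was not examined.

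Of the other genes with no gene-end peak, 6 had a peak at an inner start. Besides the tissue forms and the near copies UQCRHL and ATP5MGL, these were COX7A2, COX7A2L, a supercomplex factor, NDUFA5, NDUFC1, NDUFAF3 and ATP5MC2. Each had a T3 24 h peak near a RefSeq start inside the boundaries of the gene, at positions from -43.5 bp (NDUFA5) to -265 bp (NDUFC1). NDUFA5, an accessory subunit of complex I, had signals of 16.2 and 17.9 there (chr7:123557275-123558273, percentile 98.4), COX7A2 11.9 and 21.1 (chr6:75243239-75244146, percentile 97.9) and ATP5MC2 15.2 and 17.5 (chr12:53675764-53676530, percentile 97.8). These 3 thus ranked above most genes of the set counted at a boundary. COX7A2L had 10.6 and 13.3 (percentile 88.6), NDUFC1, an accessory subunit, 11.5 and 12.5 (percentile 88.8), and NDUFAF3, an assembly factor, 7.01 and 5.89 (percentile 52.7). In the T3 6 h list NDUFA5 had signals of 5.07 and 3.54 there and NDUFC1 4.55 and 5.31, with replicate summits 26 bp and 731 bp apart. The limit of 1 kb separated NDUFA11, at 806.5 bp, from NDUFC1, at 1052 bp, and NDUFAF3, at 1459 bp.

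The ATP synthase has a catalytic head, F1, a membrane ring of c subunits that turns, and a peripheral stalk that holds the head still. Of its 20 genes 18 had a T3 24 h gene-end peak (90%), 5 a T3 6 h one (25%) and 1 a vehicle one (5%). The shares of all genes were 60.8%, 10.8% and 1.34%. All 5 genes of the head, all 4 of the stalk and 2 of 3 of the ring had a T3 24 h gene-end peak. ATP5F1B, the catalytic beta subunit, had the strongest T3 24 h peak of all 96 genes, with signals of 20.02 and 23.4 (chr12:56645752-56646409, percentile 99.8, summits 0 bp apart), and at T3 6 h it had 6.34 and 3.73 (percentile 47.9, summits 186 bp apart). ATP5PF, of the stalk, had 20.2 and 18.6 at T3 24 h (chr21:25734699-25735849) and no T3 6 h peak. ATP5PO, the stalk protein that confers sensitivity to oligomycin, had 17.3 and 20.3 at T3 24 h and 5.67 and 4.75 at T3 6 h (percentile 56.9), with summits 7 bp and 31 bp apart. At the other extreme, ATP5F1D, of the head, had 5.49 and 4.29 at T3 24 h (percentile 25.3), the lowest of all 81.

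ATP5MC1, 1 of 3 genes for the same ring subunit, was the gene with a peak in all 3 lists. Its signals were 15.3 and 18.3 at T3 24 h (percentile 98.2), 4.88 and 3.73 at T3 6 h (percentile 2.13) and 4.75 and 3.78 in vehicle (percentile 5.65). The T3 6 h and vehicle peaks thus stood near the bottom of their lists. The vehicle peak, chr17:48892130-48892940, overlapped the T3 24 h peak by 82.9% and the T3 6 h peak by 78.8% of the shorter one, and its replicate summits lay 272 bp apart. It was absent with an IDR of at most 0.01. ATP5IF1, the inhibitor that blocks ATP hydrolysis by the enzyme, had 15.6 and 11.5 at T3 24 h and 4.61 and 5.42 at T3 6 h, and ATP5MK, a small membrane subunit, had 12.3 and 19.6 at T3 24 h and 6.96 and 3.70 at T3 6 h. ATP5MG had 12.8 and 6.42 at T3 24 h with summits 850 bp apart, the largest distance of the set.

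**Figure D5:**
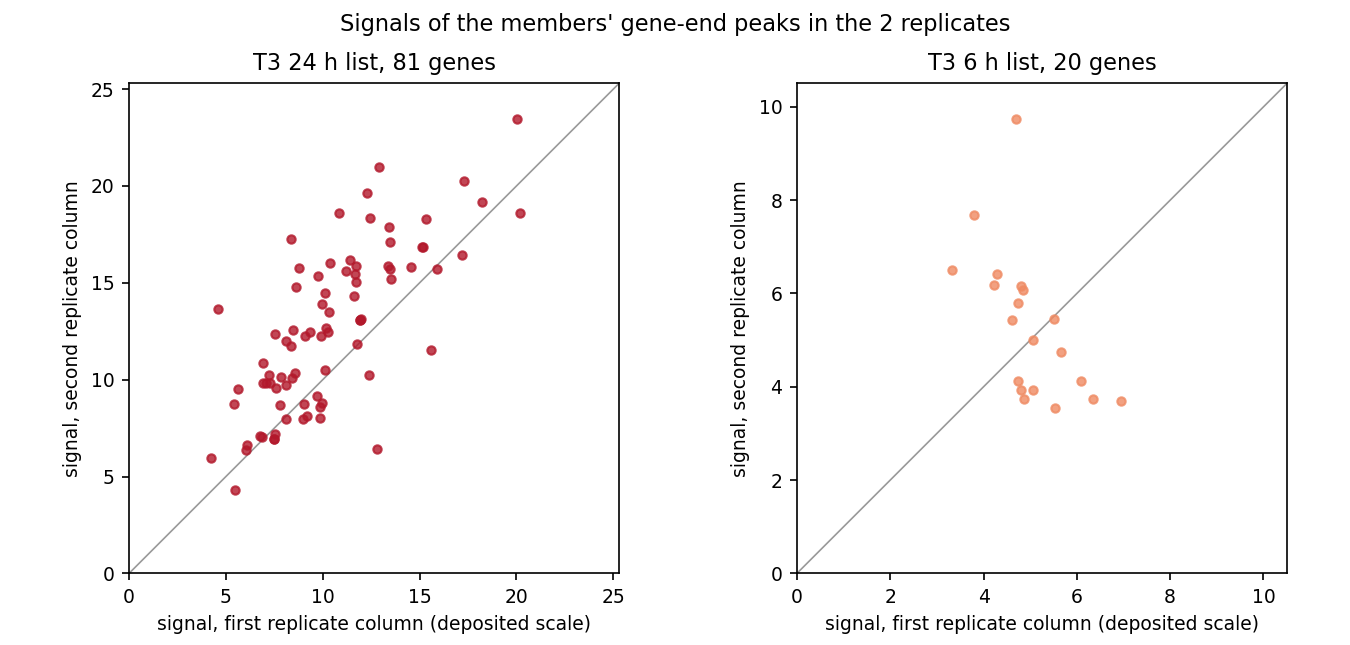
Signal of the strongest gene-end peak of each gene in the second replicate column (y axis) against the first (x axis), on the deposited scale, for 81 genes at T3 24 h and 20 at T3 6 h; the grey line marks equal signals. At T3 24 h the points follow the line, with 63 of 81 above it, and at T3 6 h they run across it.

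The replicates ranked these genes alike at T3 24 h and not at T3 6 h. Over the 81 genes at T3 24 h the 2 replicate columns had a Spearman rho of 0.74, and over the 20 genes at T3 6 h -0.77, both as descriptions across genes selected on the 2 columns and sharing the libraries. The second column was higher for 63 of 81 genes at T3 24 h, as for 64.7% of all peaks of that list. At T3 6 h it was higher for 9 of 20, against 65% of all peaks.

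Gene copies and related gene groups were counted in the same way. The symbol rule also names 192 pseudogenes, of which 12 had a gene-end peak at T3 24 h (6.25%, against 8.66% of all 16458 pseudogenes), 1 at T3 6 h (0.521%, against 2.52%) and 0 in vehicle (1.28% of all). How reads that match a gene and its copies were placed is not given in the sources used here. Of 59 other genes of the pathway, electron carriers and assembly factors whose symbols fall outside the rule, 56 had a T3 24 h gene-end peak (94.9%), 12 a T3 6 h one (20.3%) and 0 a vehicle one. CYCS, cytochrome c, led these with a T3 24 h signal of 42.0, followed by SDHAF3, an assembly factor of complex II (40.8), LYRM7, of complex III (38.8), and UQCC6 (37.5). Of 11 regulators of respiratory genes, 10 had a T3 24 h peak (90.9%), 2 a T3 6 h one (18.2%) and 0 a vehicle one. At T3 24 h these included NRF1 (18.7), GABPA (38.8, the peak shared with ATP5PF), YY1 (21.4) and TFAM (27.4). The T3 6 h peaks were those of TFB2M, a mitochondrial transcription factor (11.03), and GABPB1 (16.6), while PPRC1 had none in any list. Mitochondrial ribosomal protein genes had a gene-end peak in 71 of 77 cases at T3 24 h (92.2%), 13 at T3 6 h (16.9%) and 2 in vehicle (2.6%). Cytosolic ribosomal protein genes had one in 91 of 97 (93.8%), 16 (16.5%) and 0. Over all protein-coding genes the shares were 60.8%, 10.8% and 1.34%. The T3 24 h shares of all these related groups were thus above the 84.4% of the 96 genes, whose high share was not particular to them. No difference from these groups was tested.

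Inner peaks, inside a gene and over 1 kb from both boundaries, were held by 23 of the 96 genes at T3 24 h (24%, against 42.4% of all genes), 4 at T3 6 h (4.17%, against 13.2%) and 5 in vehicle (5.21%, against 6.94%). Since these genes are short, the shares cannot be compared directly: per 100 kb of inner length they held 2.09 inner peaks at T3 24 h, against 1.97 over all genes. In the other lists they held 4 (T3 6 h) and 5 (vehicle) such peaks in all, 0.204 per 100 kb at T3 6 h (0.317 over all genes) and 0.255 in vehicle (0.142). NDUFAF2, which spans 207822 bp, and ATP5MF-PTCD1 held the most at T3 24 h, 4 each. Both readthrough genes held inner T3 24 h peaks (4 and 3), while ATP5MF and NDUFC2 held 0, so those peaks lay outside these 2 subunit genes. They count in the 2.09 per 100 kb, and a rate without them was not computed. SDHA had 3 inner peaks at T3 24 h, 1 at T3 6 h and 1 in vehicle.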

How the data were processed

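The authors deposited 1 list per group. CASAVA 1.7, Bowtie2, Trim Galore, MACS2, DiffBind and hg38 appear in the submitters' processing notes, with no settings; the treatment of duplicates, mitochondrial reads and multiply mapped reads is not given in the sources used here. Per the file layout, the deposited score is the scaled IDR, the deposited −log10 values are of the IDR (at most 0.05), and the deposited signal sums that of both replicates, of unstated normalisation. Replicate columns carry no sample name. Depth is unknown.

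A peak was placed midway between its replicate summits. Genes came from RefSeq GRCh38.p14, which has hg38 coordinates; the gene table has no strand, and starts with strand came from the RefSeq promoter table. Exons and introns were not annotated. Percentiles are ranks of summed signal within a list. A peak near several gene ends was counted for each gene. Python 3.11.15, pandas 2.3.3, numpy 2.4.6, scipy 1.17.1 (Clopper-Pearson intervals) and matplotlib 3.10.9 were used, and the counting was tested on simulated data and against bedtools 2.31.1. Members and lists were chosen with earlier results of these data known. Genes named are those with a T3 6 h or vehicle peak, the 4 highest T3 24 h signals per complex, all of complex II, those with T3 24 h replicate summits over 500 bp apart and those with no gene-end peak, of which some results are not reported here; others (NDUFS6, NDUFS7, NDUFV1, NDUFV2, ATP5F1D, ATP5MF-PTCD1, NDUFA7, COX6B1, partner genes and isoform pairs) were named after their values were seen. Alternatives changed the distance, the IDR limit, the summit limit, list length, the replicate column, the position used and the members.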

Additional observations from a re-analysis of the deposited data

How the results depend on the processing

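No paired analysis was possible because the replicate columns carry no number and each group is represented by 1 list, so no result comes from a test. The median percentile at T3 24 h (84.1 and 86.1 by 1 replicate column) and the median summit distance (47.5 bp within 500 bp, 51 bp within 2 kb) moved by less than the spread between genes. Boundaries of 500 bp or 2 kb, the merged summit and the narrower set of 85 genes left the counts for T3 24 h and T3 6 h within 1.5 times. With boundaries of 2 kb, or when any base of a peak within 1 kb counted, 2 genes had a vehicle peak (2.08%). That was near the background of 1.89% and 1.78% of all genes. With an IDR of at most 0.01 or summits within 100 bp 0 had one (0.461% and 0.32% of all genes). With an IDR of at most 0.01, 6 genes had a T3 6 h peak and all 6 had none in vehicle; with summits within 100 bp it was 4 and 4. In lists of equal length, 36 genes had a T3 24 h peak, 35 of them none in vehicle and 27 none at T3 6 h. Leaving out 1 replicate column in turn, the values ran from 31 to 82 genes at T3 24 h, 10 to 21 at T3 6 h and 1 to 1 in vehicle, from 30 to 81 at T3 24 h and none in vehicle, from 10 to 20 at T3 6 h and none in vehicle, and from 18 to 62 at T3 24 h and none at T3 6 h; the low ends came from lists of equal length ranked by 1 column. Peaks within 1 kb of a RefSeq start, counts chosen after seeing the data, numbered 35 at T3 24 h and 12 at T3 6 h in lists of equal length, 5 at T3 6 h with summits within 100 bp and 6 with an IDR of at most 0.01. Shorter lists hold fewer genes by construction. Depth, which would set how many weak peaks a list can hold, is unknown.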
